A study of Mus musculus with 40 samples.

Results

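The Notch pathway genes described here are 3 receptors (Notch1, Notch2 and Notch3), 4 ligands (Dll1, Dll3, Jag1 and Jag2) and 3 transcriptional targets (Hes1, Hes5 and Hey1). They were taken by NCBI gene ID from the authors' deposited tables of RNA sequencing results in embryonic mouse forebrain, where all 10 are among 17940 genes listed at E14.5 and among 15449 listed at E18.5 (E, embryonic day). The study set wild-type (WT) forebrain against forebrain in which Chd8, a chromatin remodeler gene, is duplicated (Chd8 KI in the labels). Each stage has 5 WT and 5 KI libraries, each from polyadenylated RNA of the forebrain of a male mouse. Every library is forebrain tissue with its cell types together, so fewer cells of a type and less RNA per cell cannot be told apart. The sample titles do not say how evenly the forebrain was dissected. The tables give 1 mean normalized count per gene over all libraries of a stage, a log2 fold change of KI over WT and its standard error (SE), with no value per library. The direction was read from Chd8, which the authors' deposited table puts at a log2 fold change of 0.64 (SE 0.0313) at E14.5 and 0.51 (SE 0.0378) at the later stage. Of markers of the forebrain, Neurod6, of excitatory cortical neurons, had mean normalized counts of 10202 and 9234 at the respective stages, and Dlx1, of the ventral forebrain, 3065 and 1899, in the authors' deposited table.

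Notch signalling passes between neighbouring cells. A Delta or Jagged ligand on one cell binds a Notch receptor on the next, the receptor is cut by ADAM proteases and then by gamma-secretase, and the released intracellular part joins RBPJ and Mastermind-like proteins on DNA to switch on Hes and Hey genes. In the embryonic forebrain, Hes1 and Hes5 are repressors that hold back proneural genes such as Neurog2 and keep radial glia dividing, while newly born neurons present Dll1 to the progenitors around them.

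A pair of promoters is shown, that of Hes5 as a target whose upstream bases carry the RBPJ core and that of Notch3 as the one gene of the 10 that was called changed. The letters are the 250 bases before a RefSeq start in GRCm38.p6, written 5′ to 3′ on the gene's own strand, at chr4:154960673-154960922 (+) for Hes5 and chr17:32166891-32167140 (-) for Notch3. In Hes5 the capitals mark the RBPJ core TGGGAA on either strand, and in Notch3 they mark the sites CACGNG (class C, bound by Hes proteins) and CACNAG (N-box), also on either strand.
Hes5: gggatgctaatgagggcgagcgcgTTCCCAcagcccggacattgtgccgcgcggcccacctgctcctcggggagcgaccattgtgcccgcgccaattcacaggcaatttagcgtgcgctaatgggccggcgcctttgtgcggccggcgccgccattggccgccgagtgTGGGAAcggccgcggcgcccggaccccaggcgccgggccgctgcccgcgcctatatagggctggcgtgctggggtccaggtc
Notch3: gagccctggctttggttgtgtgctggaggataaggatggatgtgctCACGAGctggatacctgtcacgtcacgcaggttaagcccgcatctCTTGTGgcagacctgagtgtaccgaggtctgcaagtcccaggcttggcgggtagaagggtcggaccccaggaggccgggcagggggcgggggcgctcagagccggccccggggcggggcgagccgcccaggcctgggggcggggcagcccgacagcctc
The Hes5 window holds 2 RBPJ cores, beginning 226 and 82 bases before the start and lying on opposite strands. RefSeq lists the Hes5 gene from position 154960626, so this window lies within the annotated gene, before a start inside it. Of 32851 RefSeq promoter windows of the same length, 21.6% hold at least 1 RBPJ core and 2.77% hold 2 or more. Promoter windows were matched for 8 of the 10 genes, 9 windows in all because Dll1 has 2 starts. The windows of Jag2 and of the inner Dll1 start also lie within the annotated gene. Hes1 and Hey1 had no window and were not scanned, so Hes5 is the only target with a window here. None of the other 8 windows, all of receptors and ligands, holds an RBPJ core by these letters. The class C letters occur in the windows of Jag1, Notch2, Notch3 and at both Dll1 starts, against 23.5% of all windows. The N-box letters occur in those of Notch1, Notch2 and Notch3, against 36.7% of all windows. In Notch3 the class C match and an N-box match are the same 6 letters, 204 bases before the start. G and C made up 71.6% of the Hes5 window and 68.8% of the Notch3 window, against a median of 52.4% over all windows. The part of base composition in the matches was not tested. These matches describe letters and were not tested for binding.

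At E14.5 Notch3 rose in KI, and it was the one gene of the 10 to pass the test. The test is the authors' two-sided DESeq2 Wald test with the deposited adjusted p under 0.05, which called 162 of 13417 genes (1.21%), 99 of them higher in KI (0.738%). All 10 genes had log2 fold changes above 0 at this stage, with a median of 0.09 and a range from 0.02 to 0.23, where 49.8% of all genes tested were above 0 and the median of all was 0.00. The 95% interval lay wholly above 0 for 2 of the 10, Notch3 and Hes1, and for 6.26% of all genes tested. With 10 genes, nothing particular to them is read from that count. All 10 had an adjusted p at both stages, so none was lost to a filter on low counts.

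**Figure D1:**
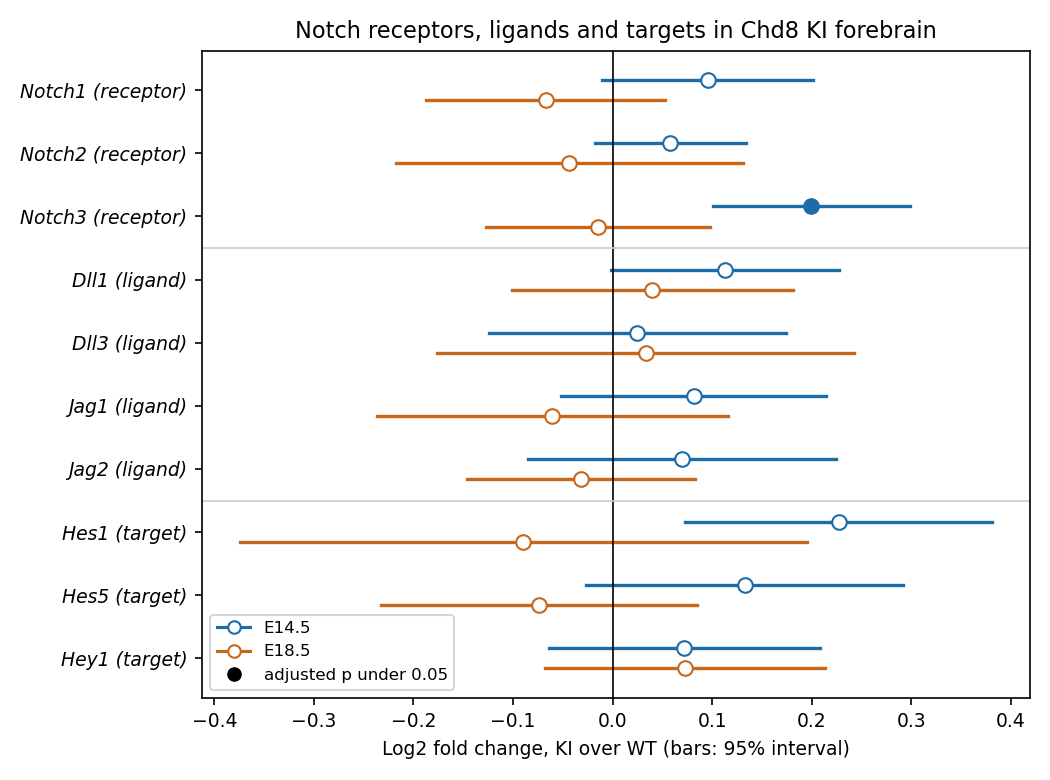
Log2 fold change of KI over WT for each of the 10 genes (horizontal axis) at E14.5 in blue and E18.5 in orange; bars are 95% intervals from the authors' SE and filled points have an adjusted p under 0.05. At E14.5 all points lie right of 0 and only Notch3 is filled, and at E18.5 7 of the 10 lie left of 0 with every interval crossing 0.

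Notch3, the receptor also known for its place in vascular smooth muscle and pericytes, stood at 0.20 at E14.5 (SE 0.0505, p = 7.85e-05, DESeq2 adjusted p = 0.0120), for 1569 mean normalized counts, in the authors' deposited table. This is 14.8% above WT, with a 95% interval from 7.22% to 23.0%. With equal weight for the 5 WT and 5 KI libraries, that mean and fold change correspond to calculated levels of about 1460 normalized counts in WT and 1677 in KI. The call ended under a Benjamini-Yekutieli adjustment of the DESeq2 p-values (adjusted p = 0.121) and with the DESeq2 statistics rescaled to an empirical null (adjusted p = 0.175). By p it was gene 88 of the 13417, and by size of rise gene 789. Notch1, the principal receptor of cortical progenitors, stood at 0.10 (SE 0.0542, DESeq2 adjusted p = 0.504) at 4413 mean normalized counts in the authors' deposited table. Calculated levels for Notch1 were 4267 in WT and 4559 in KI. Notch2 stood at 0.06 (SE 0.0387, DESeq2 adjusted p = 0.596) at 2724 mean normalized counts in the authors' deposited table, with the smallest SE of the 10 genes. A gene with that SE had to rise by about 9.63% or fall by about 8.78% to be called at E14.5, and the interval of Notch2 ran from −1.23% to 9.71%.

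The 4 ligands had smaller fold changes than Notch3, and none passed. Dll1, the Delta ligand that proneural factors switch on in committed cells, stood at 0.11 (SE 0.0584, DESeq2 adjusted p = 0.442) at 1762 mean normalized counts in the authors' deposited table. Its interval ran from −0.0946% to 17.1%, with calculated levels of 1693 in WT and 1831 in KI. Jag1, a ligand also used by blood vessels, stood at 0.08 (SE 0.0678, DESeq2 adjusted p = 0.706) at 502 mean normalized counts in the authors' deposited table. Jag2 stood at 0.07 (SE 0.0789, DESeq2 adjusted p = 0.808) at 565 mean normalized counts in the authors' deposited table. Dll3, a divergent Delta protein that stays inside the cell and dampens signalling there, was the nearest to 0 of all 10 genes at 0.02 (SE 0.0762, DESeq2 adjusted p = 0.949) in the authors' deposited table. For Jag1, Jag2 and Dll3 a rise of 17.5%, 20.6% and 19.9% would have been needed for a call.

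Among the targets Hes1 had the highest fold change of the 10 genes and did not pass. It stood at 0.23 (SE 0.0786, p = 0.00389, DESeq2 adjusted p = 0.132) at 465 mean normalized counts in the authors' deposited table. That is 17.0% above WT with an interval from 5.18% to 30.2%, or calculated levels of 428 in WT and 501 in KI, and a call at its SE needed a rise of 20.6%. Hes5, the other main Hes repressor of radial glia, stood at 0.13 (SE 0.0813, DESeq2 adjusted p = 0.553) at 849 mean normalized counts in the authors' deposited table, an interval from −1.84% to 22.4%. Hey1, a Hes-related repressor, stood at 0.07 (SE 0.0694, DESeq2 adjusted p = 0.760) at 773 mean normalized counts in the authors' deposited table. The 3 targets thus spread from 5.11% to 17.0% above WT, and their intervals overlap.

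At E18.5 none of the 10 genes passed the DESeq2 Wald test and none had an unadjusted p under 0.05. The test called 9 of 13601 genes at this stage (0.0662%), and 810 had an unadjusted p under 0.05. Log2 fold changes of the 10 genes ran from −0.09 to 0.07 with a median of −0.04, where the median of all genes was 0.00 and 48.8% were above 0. All 3 receptors were below 0, with Notch1 at −0.07 (SE 0.0613), Notch2 at −0.04 (SE 0.0890) and Notch3 at −0.01 (SE 0.0573) in the authors' deposited table. For Notch3 the 95% interval ran from −0.13 to 0.10 at E18.5 and from 0.10 to 0.30 at E14.5. Notch3 was singled out by its call at E14.5, and its difference between stages did not pass the test given below.

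Of the ligands at E18.5, Jag1 (−0.06, SE 0.0898) and Jag2 (−0.03, SE 0.0585) were below 0 in the authors' deposited table. Dll1 (0.04, SE 0.0718) and Dll3 (0.03, SE 0.107) were above 0 in the authors' deposited table. Of the targets, Hes1 stood at −0.09 (SE 0.145) and Hes5 at −0.07 (SE 0.0809), and Hey1 at 0.07 (SE 0.0716), in the authors' deposited table. Hes1 was measured least precisely here, with a mean normalized count of 130, an interval from −0.37 to 0.20 on the log2 scale, and a fall of 34.5% or a rise of 52.8% needed for a call. For the other 9 genes the fall needed at E18.5 was between 15.4% for Notch3 and 26.7% for Dll3, and the rise between 18.2% and 36.5% for the same genes.

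The difference between stages was tested gene by gene as the E18.5 log2 fold change minus that of E14.5 over their combined SE, with a two-sided normal p and Benjamini-Hochberg adjustment over 13106 genes. No gene passed (0%), and none of the 10 did. At an unadjusted p under 0.05 there were 593 genes, 2 of them among the 10, Notch3 and Notch1. Notch3 differed by −0.21 (SE 0.0764, 95% interval −0.36 to −0.06, Benjamini-Hochberg adjusted p = 0.997 over all genes, from the DESeq2 estimates). Notch1 differed by −0.16 (SE 0.0819, interval from −0.32 to just below 0). Hes1 had the widest difference, −0.32, with an interval from −0.64 to 0.01, and Hes5 stood at −0.21 with an interval from −0.43 to 0.02. The difference was below 0 for 8 of the 10 genes, with a median of −0.12, against 50.4% of all genes and a median of 0.00. Dll3 and Hey1, the 2 genes not below 0, differed by 0.01 and 0.00, with intervals from −0.25 to 0.27 and from −0.19 to 0.20. Of the 10 genes, 7 were above 0 at E14.5 and below 0 at E18.5, where the 95% interval of each gene crossed 0. The share of all genes with these signs was not counted, so nothing particular to the 10 is read from this.

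**Figure D2:**
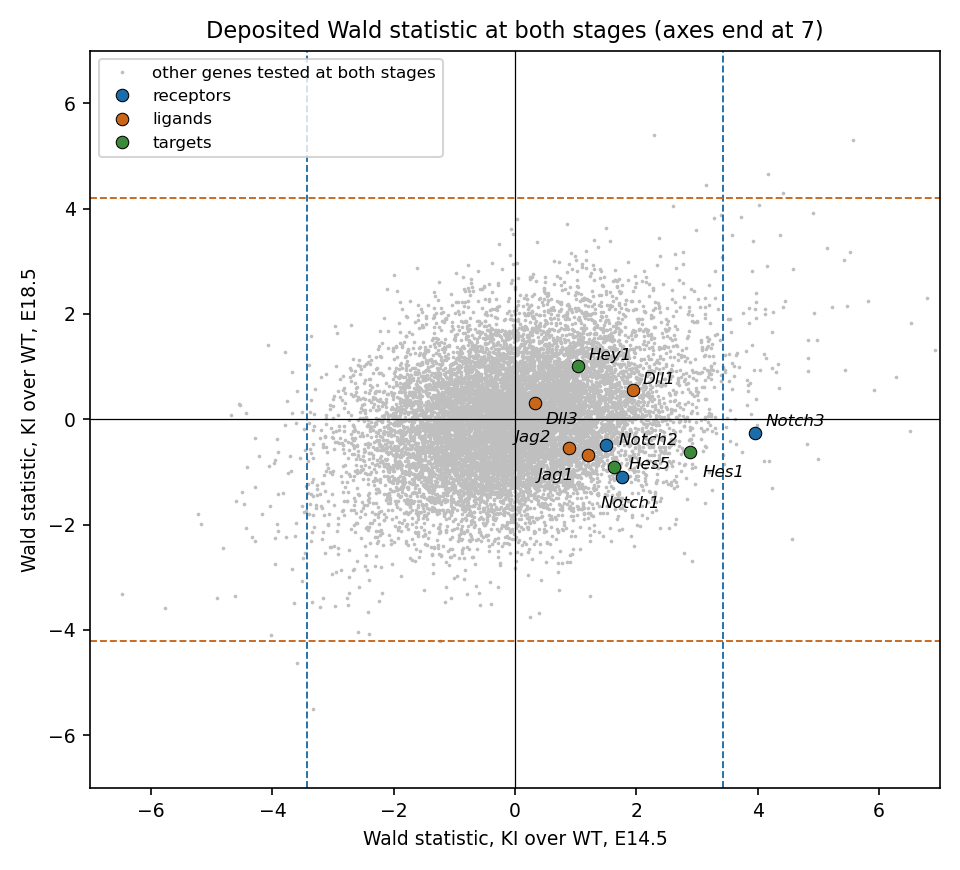
Deposited Wald statistic (log2 fold change of KI over WT divided by its SE) at E14.5 (horizontal) and E18.5 (vertical) for genes tested at both stages in grey, with receptors, ligands and targets in colour; dashed lines mark the size needed for a call at each stage, and 1 gene lies outside the axes. All 10 genes lie right of 0, Notch3 alone lies past the E14.5 line at 3.95, and none passes the E18.5 line.

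The 10 genes also differ by stage in their overall level, taken over WT and KI together. The 2 tables were normalized separately, so each mean normalized count was expressed as parts per 1000000 (ppm) of the summed counts of the 15415 genes in both tables, and the ratios are descriptions without a test or an error. By this measure 9 of the 10 genes were lower at E18.5, with a median ratio of 0.478 over E14.5, where 52.3% of the genes tested at both stages were lower and their median ratio was 0.981. Hes1 was 3.89-fold lower, from 24.8 to 6.39 ppm, and 1.24% of genes had a lower ratio. Notch1 was 3.16-fold lower, from 235.9 to 74.6 ppm. Dll3 was 2.94-fold lower and Dll1 2.63-fold lower. Notch2, Hey1, Notch3 and Hes5 lay between 1.92-fold and 2.21-fold lower, and Jag1 was 1.42-fold lower. Jag2 went the other way, from 30.2 to 74.2 ppm, 2.46-fold higher at E18.5, and 94.6% of genes had a lower ratio. Levels of different genes are not ranked against each other here, since counts were not divided by transcript length.

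**Figure D3:**
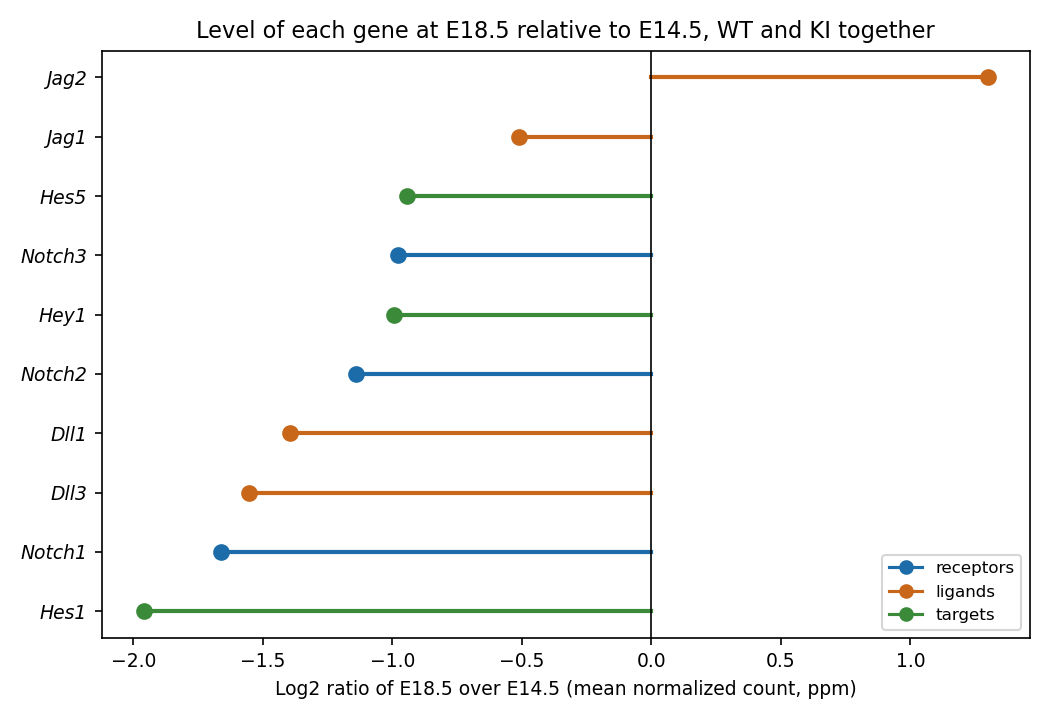
Log2 ratio of each gene's level at E18.5 over E14.5 (horizontal axis; mean normalized count in ppm, WT and KI together), coloured by role, with no error bars because the tables hold no value per library. Jag2 is the single gene right of 0, and Hes1 and Notch1 lie farthest left, 3.89-fold and 3.16-fold lower.

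The rest of the pathway was described from 64 genes in 10 lists by role, of which 60 had an adjusted p at E14.5 and 58 at E18.5. At E14.5, 1 of the 60 rose and none fell in the DESeq2 Wald test, a share of 1.67% against 1.21% of all genes, which is near the background. At an unadjusted p under 0.05 there were 11 (18.3%), of which 8 were above 0, against 11.5% of all genes tested. The median log2 fold change over the 60 was 0.02 and 60.0% were above 0, against 49.8% of all genes tested. Dlk1, a Delta-like protein without the domain that binds Notch receptors in classical ligands, and imprinted, rose at 0.31 (SE 0.0830, DESeq2 adjusted p = 0.0211) at 497 mean normalized counts in the authors' deposited table. The call ended under the same 2 settings as that of Notch3. At E18.5 Dlk1 stood at −0.09 (SE 0.143) in the authors' deposited table.

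None of the genes between ligand activation and the nuclear complex passed at E14.5, and the 4 lists that hold them had medians from −0.01 to 0.02. Members of these lists with an unadjusted p under 0.05, named after their values were seen, were the gamma-secretase subunit genes Psenen (−0.19, SE 0.0701) and Aph1a (0.14, SE 0.0644), the Mastermind-like gene Maml3 (0.13, SE 0.0636) and the Fringe gene Mfng (0.12, SE 0.0488) in the authors' deposited table. Their DESeq2 adjusted p ran from 0.194 to 0.371, and their sizes without sign lie within the range of the 10 genes. Rbpj, the DNA-binding partner, stood at −0.03 (SE 0.0405) and its coactivator gene Maml1 at 0.01 (SE 0.0503) in the authors' deposited table. The receptor-cutting proteases Adam10 and Adam17 stood at 0.00 (SE 0.0520) and −0.02 (SE 0.0702) in the authors' deposited table, and the 9 genes of this list had a median of 0.00. Mib1 and Mib2, ubiquitin ligases that activate ligands, stood at −0.02 (SE 0.0588) and 0.08 (SE 0.0539) in the authors' deposited table. Pofut1 and Poglut1, which add sugars to the receptors, stood at −0.01 (SE 0.0548) and −0.04 (SE 0.0507) in the authors' deposited table. Of the corepressors, which hold RBPJ targets silent, 8 of 11 were above 0, and the authors' deposited table gave Ncor1 0.04 (SE 0.0442) and Spen 0.11 (SE 0.0543, DESeq2 adjusted p = 0.377). The fourth receptor gene, Notch4, which is known from endothelium, stood at 0.06 (SE 0.0917), and the endothelial ligand Dll4 at −0.02 (SE 0.167), in the authors' deposited table.

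Genes that limit or follow the signal gave no call at either stage. Numb and Numbl, which oppose Notch in dividing cells, stood at 0.10 (SE 0.0909) and −0.01 (SE 0.0451) at E14.5 in the authors' deposited table. In their list 3 of 9 genes had an unadjusted p under 0.05 at E14.5 (33.3%, against 11.5% of all genes tested). Named after their values were seen, they were Dtx1 (−0.13, SE 0.0503), Dtx3 (0.19, SE 0.0651) and Dtx4 (0.12, SE 0.0514) in the authors' deposited table. Their DESeq2 adjusted p ran from 0.140 to 0.299. Of the further Hes and Hey genes, Hes6 stood at 0.08 (SE 0.0483) at E14.5, and Hes7, at a mean normalized count of 4.87, had no adjusted p, in the authors' deposited table. Of the proneural genes that Hes factors repress, Neurog1 stood at 0.20 (SE 0.112, DESeq2 adjusted p = 0.499) and Neurog2 at 0.03 (SE 0.0393, DESeq2 adjusted p = 0.828) at E14.5 in the authors' deposited table. At E18.5 none of the 58 pathway genes passed, and the median was −0.01 with 43.1% above 0, against 48.8% of all genes tested. Of the 58, 2 had an unadjusted p under 0.05 (3.45%, against 5.96% of all genes tested). Named after their values were seen, they were Dner (0.14, SE 0.0463) and Nrarp (−0.13, SE 0.0570) in the authors' deposited table.

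**Figure D4:**
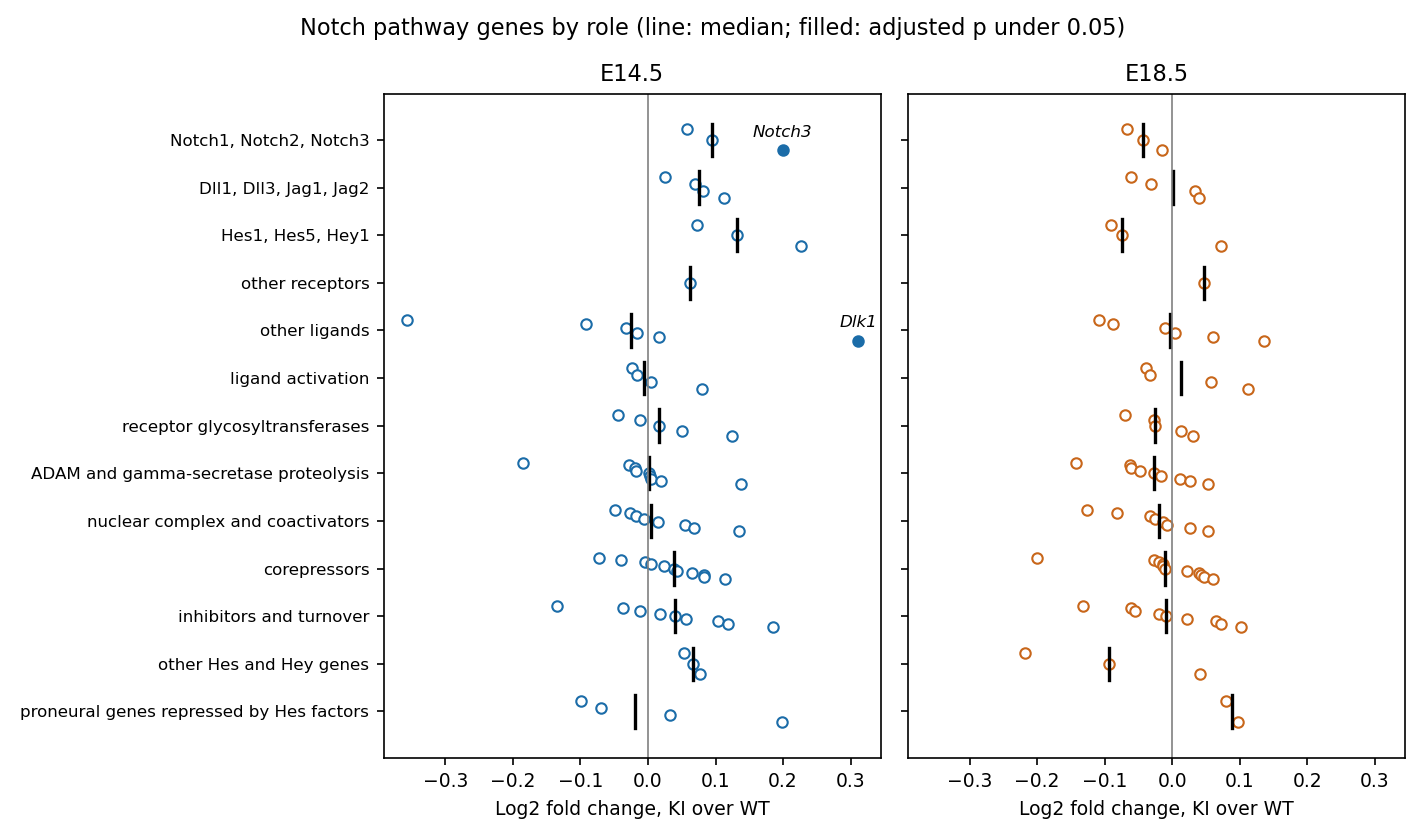
Log2 fold change of KI over WT (horizontal axis) at E14.5 (left) and E18.5 (right) for each tested gene of the pathway, in rows by role; black lines are row medians and filled points have an adjusted p under 0.05. At E14.5 the rows of the 10 genes have medians of 0.10, 0.08 and 0.13, and Notch3 and Dlk1 are the filled points. Medians of the other rows run from −0.02 for other ligands to 0.07 for other Hes and Hey genes, with ADAM and gamma-secretase genes at 0.00.

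Marker lists of the cells in a forebrain dissection were read beside these values at E14.5. The pericyte and vascular smooth muscle list, whose cells are known for Notch3, ran from −0.07 to 0.01 in its 4 tested genes of 7 with none called, and the untested Acta2, Myh11 and Des had mean normalized counts of 7.78, 5.53 and 6.82 in the authors' deposited table. The 7 endothelial markers ran from −0.16 to 0.02, none called. Of 8 radial glia markers 3 were above 0 (median −0.01, from −0.07 to 0.16), none called. Of the 8, 2 had an unadjusted p under 0.05 and were above 0 (25%, against 6.26% of all genes tested). These were Sox2 (0.16, SE 0.0605) and Gli3 (0.12, SE 0.0497) in the authors' deposited table. Radial glia did not stand out by this share, which was 21.1% over the 12 lists together. By list it ran from 0% for endothelium to 100% for the tested erythroid markers, with ventral forebrain at 50%. All 6 ventral forebrain markers were above 0 (from 0.08 to 0.43, summed level 12031 mean normalized counts), and Dlx1 rose (0.17, SE 0.0466, DESeq2 adjusted p = 0.0369, in the authors' deposited table). Of 6 neuronal markers 5 were below 0 (from −0.20 to 0.04), and Neurod6 fell (−0.20, SE 0.0456, DESeq2 adjusted p = 0.00438, in the authors' deposited table). Of 5 intermediate progenitor markers 4 were above 0 (from −0.06 to 0.12), none called. The 3 tested erythroid markers of 5 were above 0 (from 0.49 to 0.59, summed level of the tested genes 1279) and 2 of them rose, and the 4 tested fibroblast markers of 6 were above 0 (from 0.12 to 0.61, summed level of the tested genes 249.9), none called. The part of the ventral, neuronal, erythroid and fibroblast shifts in the Notch3 value was not tested. Over the 12 lists, 4 of 57 tested markers were called at E14.5 (7.02%, against 1.21% of all genes tested). At E18.5 none of 54 was called (against 0.0662% of all genes tested). There 7 had an unadjusted p under 0.05 (13.0%, against 5.96% of all genes tested). At E18.5 the 5 oligodendrocyte lineage markers were all below 0, from −0.22 to −0.05, where 48.8% of all genes tested were above 0. Of these 5, 3 had an unadjusted p under 0.05 (60%, against the same 5.96%). At E14.5, 2 of the 5 were above 0 (from −0.34 to 0.23), none called. The astrocyte, microglia and choroid plexus lists gave no call at either stage.

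Around Notch3 on chromosome 17 (32120820 to 32166896 in GRCm38), 4 of 185 other genes tested within 5 Mb were called at E14.5 (2.16%, against 1.21% of all genes tested), all higher in KI. They are Rgl2 and the class I histocompatibility genes H2-K1, H2-D1 and H2-Q4. Dlk1 on chromosome 12 had 2 of 80 such neighbours called (2.5%, against the same 1.21%), Rian and Zfp839, both higher. They were named for their position, after their values were seen. Around Notch1, Dll1, Dll3, Jag1, Hes1, Hes5 and Hey1 no neighbour within 5 Mb was called, out of 17 to 161 tested. Notch2 had 1 of 100 called, and Jag2, on the same stretch of chromosome 12 as Dlk1, had 3 of 81 (3.7%, again against 1.21%), Dlk1 among them. The part of position in the Notch3 and Dlk1 values was not tested. By the pair of Wald statistics, over these 2 comparisons only, the genes nearest to Notch3 among 12118 were Zfp839, the cyclin gene Ccnd1 and the noncoding Snhg8, at distances of 0.144, 0.365 and 0.375. Notch3 overlaps the annotated noncoding genes Gm38585 and Gm41568, and the end of Notch1 overlaps 0610009E02Rik, whose mean normalized count was 14.6 in the authors' deposited table. Notch2 overlaps Gm40103, and Hey1 overlaps LOC115489673. Without strand, reads of such overlaps cannot be told apart.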

How the data were processed

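RNA sequencing of embryonic mouse forebrain (5 WT and 5 KI libraries at each of E14.5 and E18.5) was analysed from the authors' deposited result tables. CHD8 chromatin immunoprecipitation, input and ATAC libraries were left out. The series' tools, per the submitters' processing notes, include DESeq2 1.26.0, featureCounts 2.0.0, HISAT2 2.1.0 and Trimmomatic 0.39, with build mm10; strand use in counting is not given in the sources used here. Per the file headers, the authors deposited a mean normalized count (a signal averaged over the libraries of a stage), a log2 fold change, its SE, a Wald score, and the p-value before and after adjustment, per gene. The deposited score equals the log2 fold change over its SE. The tables hold 0 columns of per-sample values, so depth per library is unknown and precision comes from the authors' SE.

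Gene IDs were matched to a RefSeq table of GRCm38.p6 (17192 of 17940 IDs at E14.5, 15064 of 15449 at E18.5), which also gave promoters. A gene is called at a deposited adjusted p under 0.05, a two-sided Wald test over the 13417 (E14.5) and 13601 (E18.5) genes that have one. Where the labels do not say that libraries came from separate litters, p-values measure the spread between these libraries. A 95% interval is the log2 fold change ± its normal quantile times the SE. The change needed for a call is taken as the Wald statistic of the weakest called gene times the SE. This is an approximate limit, since a slightly smaller statistic could also have passed the adjustment. Calculations used Python 3.11.15, numpy 2.4.6 and scipy 1.17.1, and were tested on simulated data. The 10 genes and all lists were chosen with earlier results of these data known. Named genes are the 10, each called pathway gene, the first 2 measured of each pathway list, and the 3 genes nearest to the gene of lowest p among those at 50 or more mean normalized counts at both stages. Of the marker lists, called and first genes fall under the rule, but values are given by list. Genes named by position, genes named for an unadjusted p under 0.05 and the untested mural markers were chosen after their values were seen. Some genes of the lists are neither reported nor counted here. Alternatives were the Benjamini-Yekutieli adjustment, an empirical null, a minimum of 100 mean normalized counts, no count filter and median centring.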

Additional observations from a re-analysis of the deposited data

How the results depend on the processing

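The single call among the 10 genes, Notch3 at E14.5, ended under the Benjamini-Yekutieli adjustment (0 of 10 called, adjusted p = 0.121) and with the Wald statistics centred and rescaled by their robust spread (0 of 10 called, adjusted p = 0.175; scale 1.21). It was kept with a minimum of 100 mean normalized counts, no count filter and median centring (adjusted p from 0.0107 to 0.0160). The 1 pathway call at E14.5, Dlk1, became 0 under both of the former settings (adjusted p = 0.213 and 0.237). The cause was not tested. Over all genes the calls at E14.5 went from 162 to 56 and 32 under those 2 settings, and the share higher in KI from 61.1% to 64.3% and 78.1%. At E18.5 they went from 9 to 4 and 19, and to 14 with a minimum of 100 mean normalized counts. None of the 10 genes was called at E18.5, and none for the difference between stages, under any setting run, and no log2 fold change of the 10 changed sign. Level ratios between stages kept their direction with a median scaling chosen after seeing the data, from 0.262 for Hes1 to 2.51 for Jag2. No paired analysis was possible because the tables hold no value per library, so leaving out replicates was not run either. The SE at each stage limits what could be seen. Judged by the weakest called gene, the smallest change needed among the 10 genes at E14.5 was about a 9.63% rise or an 8.78% fall. At E18.5 it was about an 18.2% rise or a 15.4% fall. These limits are approximate, since a slightly smaller change could also have passed.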
